A study of Homo sapiens with 24 samples.

Results

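MB468 cells at 0.5 h and at 2 h post-media switch were compared, with 3 libraries at each time and 6 of the 24 libraries of the series in all. MB468 is short for MDA-MB-468, a human triple negative breast cancer line that cannot proliferate once methionine (Met) is replaced by homocysteine (Hcy). Both groups had left medium with 100 µM L-methionine (Met+) for medium in which 370 µM DL-homocysteine took its place (Met-Hcy+), and both media held DMEM, 10% dialyzed FBS, vitamin B12, glutamine, and cysteine. The remaining groups were MB468 in Met+ medium (0 h) and at 12 h in Met-Hcy+ medium, and the same 4 times in MB468res-R8 (R8), 1 clone derived from MB468 that proliferates in Met-Hcy+ medium. No library from cells given fresh Met+ medium for 0.5 h or 2 h was analysed here, so at either time the loss of Met and the change of medium cannot be told apart. Cells at 0.5 h and 2 h had both been through that change, and the comparison between them shows which early RNA levels went down, stayed, or came up over the following 1.5 h. The labels do not say that replicates were separate cultures, so the p-values measure the spread between these libraries, which may be technical.

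Immediate early genes are the first to respond when growth factors, serum, or fresh medium reach a cell. Their RNAs are made from factors already in place, often by phosphorylated SRF and its partners at CArG boxes or by CREB at cyclic AMP response elements (CREs), and most of them are short lived. Their products are transcription factors (FOS, JUN, EGR1), phosphatases that switch MAPK signaling off (the DUSP family), and proteins that bring about the decay of other RNAs (the ZFP36 family). Other genes answer amino acid shortage through the factor ATF4, among them CHAC1, SESN2, and DDIT4. MAT2A encodes the enzyme that makes S-adenosylmethionine (SAM) from Met.

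Upstream DNA is shown for 6 of the genes described below, all of them genes with a marked element before the start. The 250 bases before the RefSeq start are given 5′ to 3′ on the gene's own strand (GRCh38.p14), in lower case. Capitals mark a CRE (TGACGTCA) in DUSP1, MAFF, AREG, and PPP1R15A, CArG boxes in EGR1, and a C/EBP-ATF response element (CARE, TGATGCAA, here on the opposite strand) in CHAC1.
EGR1: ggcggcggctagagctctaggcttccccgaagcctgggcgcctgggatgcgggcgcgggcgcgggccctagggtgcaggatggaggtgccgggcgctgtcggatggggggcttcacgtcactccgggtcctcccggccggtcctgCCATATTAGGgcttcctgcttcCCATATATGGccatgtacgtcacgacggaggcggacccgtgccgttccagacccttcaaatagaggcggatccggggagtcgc
DUSP1: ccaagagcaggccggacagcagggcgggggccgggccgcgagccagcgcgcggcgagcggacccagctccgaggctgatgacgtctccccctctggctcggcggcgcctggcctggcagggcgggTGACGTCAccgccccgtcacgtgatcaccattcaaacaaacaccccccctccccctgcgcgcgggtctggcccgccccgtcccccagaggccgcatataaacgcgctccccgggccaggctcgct
MAFF: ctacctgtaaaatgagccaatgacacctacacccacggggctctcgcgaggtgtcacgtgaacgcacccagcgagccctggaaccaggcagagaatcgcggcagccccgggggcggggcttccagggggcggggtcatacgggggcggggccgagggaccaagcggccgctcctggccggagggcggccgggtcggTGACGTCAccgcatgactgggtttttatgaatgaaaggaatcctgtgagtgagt
AREG: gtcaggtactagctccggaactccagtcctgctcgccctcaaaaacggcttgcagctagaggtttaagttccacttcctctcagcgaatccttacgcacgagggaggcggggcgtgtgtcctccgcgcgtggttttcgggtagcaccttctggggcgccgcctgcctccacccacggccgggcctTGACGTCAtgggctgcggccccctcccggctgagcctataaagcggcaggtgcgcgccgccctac
PPP1R15A: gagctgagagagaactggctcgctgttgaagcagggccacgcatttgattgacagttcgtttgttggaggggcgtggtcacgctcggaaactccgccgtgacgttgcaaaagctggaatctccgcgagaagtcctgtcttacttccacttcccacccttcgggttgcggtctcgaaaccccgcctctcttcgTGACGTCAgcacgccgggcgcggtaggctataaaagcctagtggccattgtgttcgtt
CHAC1: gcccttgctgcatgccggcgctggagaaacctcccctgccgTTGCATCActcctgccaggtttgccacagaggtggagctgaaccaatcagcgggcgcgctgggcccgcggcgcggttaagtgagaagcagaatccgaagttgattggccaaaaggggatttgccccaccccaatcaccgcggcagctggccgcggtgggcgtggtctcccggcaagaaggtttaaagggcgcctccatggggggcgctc
EGR1 lies at chr5:138465229-138465478 (+ strand), DUSP1 at chr5:172771196-172771445 (- strand), MAFF at chr22:38201744-38201993 (+), AREG at chr4:74444886-74445135 (+), PPP1R15A at chr19:48872171-48872420 (+), and CHAC1 at chr15:40953221-40953470 (+), these being the coordinates of the printed bases. The CRE begins 125 bases before the start in DUSP1, 65 in AREG, 58 in PPP1R15A, and 54 in MAFF. In EGR1 the pair of CArG boxes begins 105 and 83 bases before the start, and in CHAC1 the CARE begins 209 bases before it. Over the 16694 RefSeq promoter windows of tested genes, which run from 250 bases before to 50 after a start, 2.67% hold this CRE, 1.1% a CArG box, and 0.551% this CARE on either strand. Many genes named below hold none of these elements in that window, among them FOS, EGR2, JUN, SESN2, and DDIT4. BCL6 and HERPUD1 hold the CARE as well, SRF holds CArG boxes, and FHL2 and CYP1A1 hold 1 CArG box each. Whether the elements go with the courses was not tested. A match describes the letters and does not show that a factor was bound.

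Totals ran from 11745553 to 30345322 counts in the 6 libraries, and from 11745553 to 36496655 in all 24. The share of counts on the ERCC spike-in RNAs was 0.250% ± 0.0244 (SD, n = 3) at 0.5 h and 0.278% ± 0.0224 (SD, n = 3) at 2 h, and the difference did not pass an exact two-sided permutation test (p = 0.3, where 3 against 3 cannot go below 0.1). MB468 2 h replicate 2 stood apart. It held 8251 counts of RN7SK, a small nuclear RNA without a poly(A) tail, against 44 to 357 in the other 23 libraries. Its summed RNAs without a poly(A) tail reached 1843 CPM, against 40.6 to 87.3 CPM elsewhere. RMRP at 6.16 ± 1.47 and RN7SL1 at 5.44 ± 1.34 were called higher at 2 h only with this library in the fit, and gave 0.80 and 0.56 without it. Of the 419 genes called at least 2-fold higher at 2 h, 67 were not called without it, and of the 157 at least 2-fold lower, 27 were not. Of these 576 genes, 9 took the opposite sign without it. Leaving out any 1 of the 6 libraries lowered the number of all genes called, from 4822 to between 4122 and 4497. That number was 4351 without replicate 2. Among the genes named below as called, other than RNAs without a tail, XBP1 and RYBP lost their call without replicate 2. The 9 breast epithelial markers were all expressed, EPCAM at 6900 to 7670 normalized counts (counts divided by TMM-scaled library sizes), and 6 of them rose, which took their sum from 220000 to 226000 at 0.5 h to 285000 to 295000 at 2 h, largely through KRT17. Of the fibroblast list 2 of 7 passed the filter, COL1A1 at 601 to 894 normalized counts and higher at 2 h (0.43, adjusted p = 3.1e-04) and PDGFRB at under 9, while COL1A2 was at 0 in every one of the 6 libraries. Of the immune list CD14 and CD68 passed, neither being called. The endothelial list summed to 4120 to 5410 normalized counts at 0.5 h and 8770 to 9180 at 2 h, most of it KDR, and 3 of its 4 genes rose, CDH5 from a mean of 2.98 to 56.6. The part of these markers in other results was not tested.

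**Figure D1:**
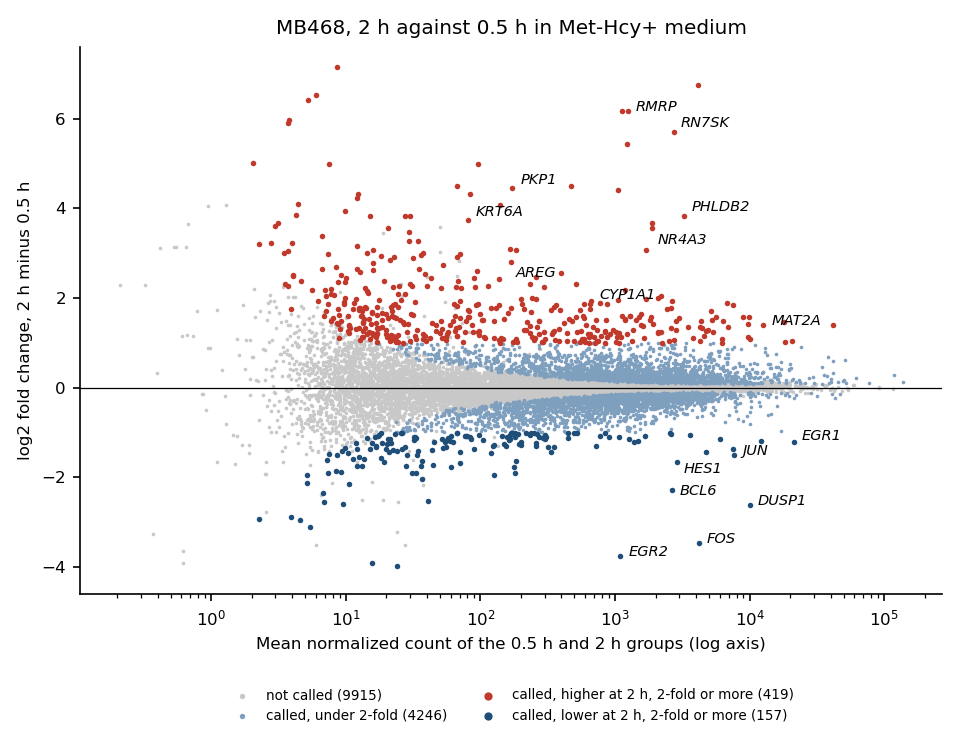
MB468 RNA levels at 2 h against 0.5 h post-media switch. Each point is 1 of the tested genes, the x axis gives its mean normalized count over both groups (log axis) and the y axis its log2 fold change, and genes with no count in either group are not drawn. Points past 2-fold and called at an adjusted p under 0.05 are more often above the zero line (419, red) than below it (157, dark blue), and RMRP and RN7SK are high through 1 library.

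Between 0.5 h and 2 h, 4822 of 14741 genes tested changed (32.7%), 2396 of them upward (16.3%) and 2426 downward (16.5%). A gene was called where its Benjamini-Hochberg adjusted p from edgeR's quasi-likelihood fit was under 0.05, and all adjusted p-values below are of this kind. The change from 0.5 h to 2 h is called the step below and that from 0 h to 0.5 h the first interval, both as log2 fold changes of the later over the earlier time. Values after ± are standard errors of log2 fold changes unless named otherwise. RNA from many cells was measured together, so that fewer cells with an RNA and less of it per cell cannot be told apart. Most changes were small, with a median absolute log2 fold change of 0.36 among the genes called. Past 2-fold the directions were unequal, with 419 genes higher (2.84%) and 157 lower (1.07%). The 3 libraries of one time lay wholly above or below those of the other for 5753 genes (39.0%). For reference, 5000 genes (33.9%) were called from 0 h to 0.5 h and 2410 (16.3%) from 0 h to 2 h; these comparisons share libraries with the one described here, so each gives its own values only. When libraries were scaled by their spike-in totals in place of TMM factors, the median gene moved from -0.0068 to -0.22 on the log2 scale, and the split became 677 higher and 3019 lower. With that scaling 290 genes were at least 2-fold higher and 341 lower. List counts given below under spike-in scaling are to be set against the 677 higher and 3019 lower of all 14741 genes. The shares of 16.3% and 16.5% belong to the TMM scaling alone. All fold changes below are relative to the median gene, and a log2 value between 0 and about 0.2 changes its side under spike-in scaling.

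The steepest falls were in RNAs that had come up within 0.5 h. EGR2, a zinc finger transcription factor, had 17.1, 26.3, and 26.7 normalized counts at 0 h, 2181, 1761, and 2183 at 0.5 h, 169, 130, and 148 at 2 h, and 89.2, 90.6, and 64 at 12 h. Every 2 h library was far below every 0.5 h library and still above every 0 h library. The log2 fold change from 0.5 h was -3.76 ± 0.11, a fall of 13.5-fold (adjusted p = 2.3e-26). FOS, a subunit of the AP-1 factor, stood at 193, 196, and 204 at 0 h, 6695, 7526, and 8916 at 0.5 h, and 669, 700, and 719 at 2 h. It fell 11-fold over the step (-3.46 ± 0.08, adjusted p = 1.2e-20) and by 12 h was down to 293, 261, and 280. DUSP1, a phosphatase of p38, JNK, and ERK whose CRE is printed above, went from 811, 810, and 856 through 16630, 17190, and 17900 to 2816, 2827, and 2832 (-2.61 ± 0.07, adjusted p = 6.1e-21). The 2 h libraries of DUSP1 lay within 0.568% of each other, and all 3 were above 0 h.

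BCL6, a transcriptional repressor, made the whole return. It had 858, 830, and 736 normalized counts at 0 h, 4261, 3988, and 4929 at 0.5 h, and 948, 861, and 869 at 2 h, and the 2 h level did not pass the test against 0 h (0.14, adjusted p = 0.32). Its log2 fold change over the step was -2.29 ± 0.08 (adjusted p = 4.9e-19). GATA2, a zinc finger factor, likewise went from 201, 164, and 235 to 56.4, 52.5, and 45.1 (-1.95 ± 0.18), with 65.5, 54.2, and 35.1 at 0 h. HES1, the repressor downstream of Notch, fell from 4681, 4527, and 4038 to 1430, 1382, and 1420 (-1.65 ± 0.10) and stayed above its 0 h values of 979, 1039, and 1006. Among other genes with the largest falls were ZFHX2 (-1.91 ± 0.16), SALL2 (-1.63 ± 0.15), and RWDD2A (-1.45 ± 0.19), the sphingosine 1-phosphate receptor S1PR5 (-1.77 ± 0.15), and the vesicle GTPase RAB3A (-1.68 ± 0.25).

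Of the 26 immediate early transcription factors, all of them tested, 12 fell, 7 rose, and 7 were not called, which makes 46.2% lower against 16.5% of all genes. The list's median log2 fold change was -0.22 over the step, beside 1.62 from 0 h to 0.5 h and 1.25 from 0 h to 2 h, so that the middle of the list was at 2 h still above its level in Met+ medium. With spike-in scaling 12 fell and 5 rose. EGR1, with the CArG boxes shown, had 994, 966, and 866 normalized counts at 0 h, 28280, 28320, and 32490 at 0.5 h, and 12520, 13170, and 12720 at 2 h. Its fall (-1.21 ± 0.09, adjusted p = 3.5e-09) left the lowest 2 h library at 12.6 times the highest of 0 h. JUN, the partner of FOS, fell from 10750, 11320, and 12130 to 3882, 4426, and 3832 (-1.50 ± 0.09, adjusted p = 2.8e-10), and JUNB from 7760, 8037, and 8943 to 3649, 3783, and 3766 (-1.14 ± 0.06). KLF6, a zinc finger factor, dropped less (-0.74 ± 0.05).

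For some of the early factors no change was called. NR4A1, an orphan nuclear receptor, had 2816, 1937, and 2292 normalized counts at 0 h, 15560, 13570, and 16140 at 0.5 h, and 17340, 13390, and 16660 at 2 h. The 0.5 h and 2 h libraries overlapped and the change did not pass the test (0.07 ± 0.20, adjusted p = 0.84, and -0.14 with spike-in scaling), while both times were above 0 h (2.68 and 2.75). By 12 h NR4A1 was at 805, 765, and 785, below where it had begun. KLF10, a factor known from TGF-beta signaling, stood at 3331, 3324, and 3195 at 0.5 h and 3225, 3142, and 3312 at 2 h (-0.03 ± 0.05, adjusted p = 0.76), with 1116, 1210, and 1342 at 0 h. The 95% interval of the log2 fold change ran from -0.33 to 0.47 for NR4A1 and from -0.13 to 0.08 for KLF10, so that for NR4A1 a modest change in either direction remained possible.

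**Figure D2:**
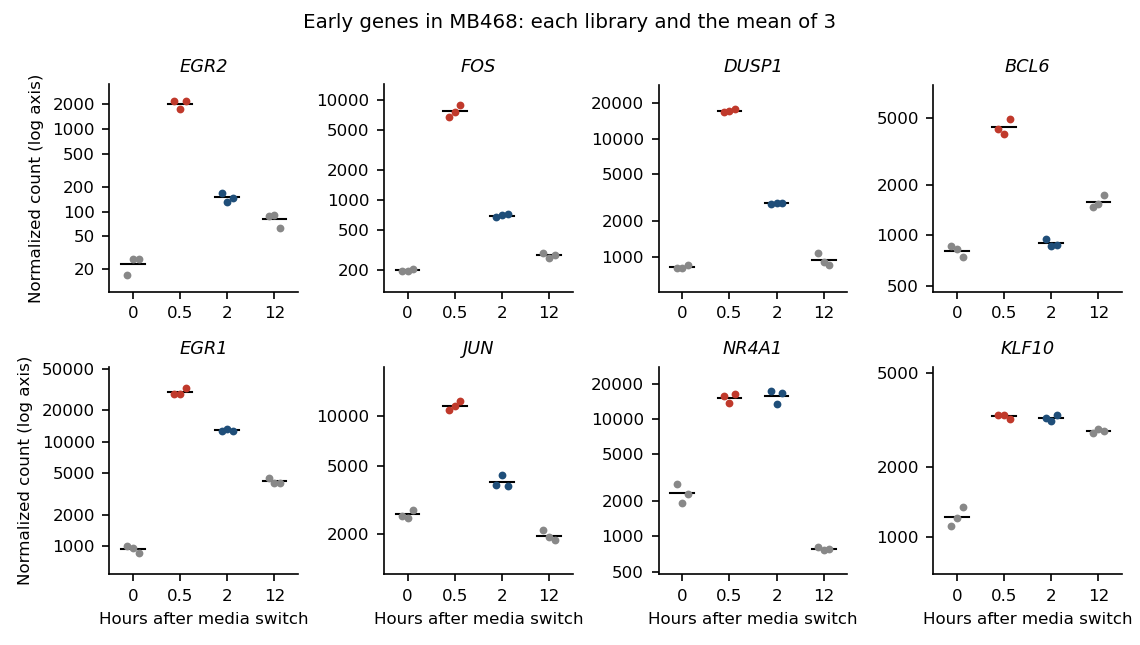
Normalized counts (log axis) of 8 early genes in MB468 at 0, 0.5, 2, and 12 h post-media switch, with each library as a point and the mean of 3 as a bar; 0.5 h is red and 2 h dark blue. EGR2, FOS, DUSP1, BCL6, EGR1, and JUN are lower at 2 h than at 0.5 h in every library, and the 2 times overlap in NR4A1 and KLF10.

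Other factors of the immediate early list rose over the step. NR4A3, a paralog of NR4A1, had 633, 520, and 514 at 0 h, 480, 151, and 173 at 0.5 h, and 3417, 2973, and 4115 at 2 h. Replicate 1 at 0.5 h was high for its group, yet the lowest 2 h library was 6.19 times as high, and the rise passed the test (3.56 ± 0.40, adjusted p = 1.5e-06). At 12 h NR4A3 was at 44, 45.3, and 41.8. FOSL1, the AP-1 subunit known as FRA-1, went from 992, 977, and 998 at 0 h through 434, 397, and 464 at 0.5 h to 2103, 1955, and 1758 at 2 h (2.18 ± 0.15, adjusted p = 2.1e-09). MAFF, a small MAF protein with the CRE shown, rose from 2941, 2710, and 2547 to 8079, 7364, and 7882 (1.50 ± 0.09), FOSL2 nearly doubled (a fold of 1.99), and SRF itself rose by 0.84 ± 0.05. At 0.5 h MAFF, FOSL1, FOSL2, and SRF were each below their 0 h level (-0.49, -1.21, -0.75, and -0.86, all called). At 2 h SRF was back at its 0 h level (-0.02, adjusted p = 0.89), and FOSL2 did not pass the test against 0 h (0.25, adjusted p = 0.063). MAFF (1.01) and FOSL1 (0.97) were then above 0 h.

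Feedback genes of MAPK signaling split in the same way. Of 18 tested, 8 rose and 5 fell (44.4% and 27.8%, against 16.3% and 16.5% of all genes), with a list median of 0.16, and spike-in scaling gave 5 and 5 and a median of -0.05. DUSP5, which removes phosphate from ERK in the nucleus, fell from 6620, 6087, and 6593 to 4000, 4461, and 4167 (-0.61 ± 0.06), and DUSP2 fell too (-1.22 ± 0.14). DUSP4, an ERK phosphatase as well, rose from 4580, 4013, and 4423 to 7550, 7182, and 8043 (0.81 ± 0.07, adjusted p = 1.2e-08), and DUSP16, which acts on JNK and p38, from 1097, 1119, and 1133 to 3735, 3742, and 3765 (1.75 ± 0.06, adjusted p = 4.4e-23). The 3 libraries of DUSP16 at 2 h lay within 0.803% of each other. ERRFI1, an inhibitor of the EGF receptor, rose in both intervals (0.40 to 0.5 h and 0.66 ± 0.05 from there to 2 h).

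The ligands AREG, EREG, EPGN, HBEGF, and TGFA of the EGF receptor were higher at 2 h than at 0.5 h, in a line known for its high EGFR. Of 9 ligands and receptors, 5 rose and 1 fell (55.6% higher, against 16.3% of all genes), with a median of 0.50. The 3 not called included the ligand BTC. AREG, with its CRE printed above, had 138, 157, and 121 normalized counts at 0 h, 38.7, 48.1, and 38.5 at 0.5 h, and 247, 301, and 333 at 2 h. The lowest 2 h library was 5.14 times the highest at 0.5 h (2.81 ± 0.19, adjusted p = 8.5e-15). EREG rose from 63.2, 63.7, and 46.2 to 164, 245, and 204 (1.78 ± 0.20, adjusted p = 8.9e-10), and EPGN from 7.44, 8.94, and 5.77 to 53.7, 38.9, and 75.1 (2.90 ± 0.32). AREG, EREG, and EPGN had been below 0 h at 0.5 h (-1.74, -0.74, and -2.69, all called), and at 2 h AREG (1.07) and EREG (1.04) were above it while EPGN was not called against it (0.22, adjusted p = 0.59). HBEGF rose in steps, from 701, 633, and 617 at 0 h to 952, 776, and 970 at 0.5 h and 1498, 1758, and 1669 at 2 h (0.87 ± 0.08 over the step), and TGFA rose by 0.50. The receptor ERBB3 fell slightly (-0.22 ± 0.05, adjusted p = 2.1e-04), and EGFR, at 48900 to 56500 normalized counts, was not called. AREG, EREG, EPGN, and HBEGF were at a lower level at 12 h than at 2 h (-2.50, -1.96, -2.14, and -1.83).

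Genes whose products bring about RNA decay or slow proliferation gave 3 higher and 4 lower of 11 (27.3% and 36.4%, against 16.3% and 16.5%), and 1 and 4 with spike-in scaling. Their median of 0.06 became -0.16 with that scaling. ZFP36, which recruits deadenylases to AU-rich elements, fell from 3318, 3345, and 3801 to 1755, 1731, and 1636 (-1.03 ± 0.06, adjusted p = 9.7e-18). Its paralog ZFP36L1 went from 17710, 16530, and 17730 to 11820, 11500, and 11060 (-0.60 ± 0.04), whereas ZFP36L2 rose from 4078, 3750, and 3688 to 6356, 6568, and 6809 (0.77 ± 0.05, adjusted p = 5.9e-16). ZFP36 and ZFP36L1 had risen by 0.5 h (2.57 and 1.85), while for ZFP36L2 that first interval gave -0.07 (adjusted p = 0.28). The antiproliferative genes TOB1 (-0.72 ± 0.11) and BTG2 (-0.79 ± 0.15) fell.

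Targets of ATF4 and CHOP, the amino acid and unfolded protein response factors, fell more often than they rose. Of 27 tested, 10 fell and 5 rose (37% lower against 16.5%, and 18.5% higher against 16.3%), with a median of -0.06. Without 2 h replicate 2 the counts were 8 and 4, and with spike-in scaling 11 fell and none rose. CHAC1, which degrades glutathione and carries the CARE shown, had 113, 131, and 126 normalized counts at 0 h, 1335, 1176, and 1606 at 0.5 h, 824, 981, and 1062 at 2 h, and 2580, 2608, and 2606 at 12 h. It fell over the step in every library (-0.51 ± 0.08, adjusted p = 3.6e-06), remained at 6.31 times its 0 h level or more, and was higher again at 12 h (1.44 from 2 h). SESN2, an inhibitor of mTORC1, went from 206, 174, and 188 to 1391, 1230, and 1472 and 858, 993, and 939, then 1659, 1517, and 1532 at 12 h (-0.55 ± 0.08 over the step, adjusted p = 2.9e-07). DDIT4, also known as REDD1 and likewise an inhibitor of mTORC1, fell from 21940, 20540, and 24880 to 10530, 12210, and 11790 (-0.96 ± 0.06, adjusted p = 1.9e-11), against 3203, 2947, and 3242 at 0 h. VLDLR, a lipoprotein receptor, fell 2.01-fold.

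DDIT3, which encodes CHOP, had 73.6, 93.2, and 75.9 at 0 h, 321, 284, and 369 at 0.5 h, and 264, 264, and 275 at 2 h. All 2 h values lay below the 0.5 h values, but the change did not pass the test (-0.26 ± 0.11, adjusted p = 0.066). DDIT3 passed with spike-in scaling (-0.48, adjusted p = 0.022) and without 0.5 h replicate 2 (-0.34, adjusted p = 0.027). ATF4 itself rose slightly, from 26750, 28140, and 26890 to 32360, 31370, and 32170 (0.23 ± 0.03, adjusted p = 5.3e-07), a rise that was 0.03 and not called with spike-in scaling. Its partner CEBPG (0.47 ± 0.04) and PPP1R15A, which restores translation by dephosphorylating eIF2α (0.43 ± 0.05), rose too, and with spike-in scaling gave 0.27 and 0.23 without a call. ASNS, asparagine synthetase, was at 8111, 7517, and 8761 at 0.5 h and 7954, 8153, and 7316 at 2 h, with overlapping libraries (-0.06 ± 0.07, adjusted p = 0.57). Among endoplasmic reticulum genes 3 of 22 rose and 3 fell, 13.6% each way against 16.3% and 16.5% of all genes, and with spike-in scaling 3 fell and none rose. HERPUD1 fell from 6369, 5784, and 6419 to 4173, 4302, and 4075 (-0.57 ± 0.07) after a rise by 0.5 h (1.32), the sensor ERN1 rose (0.55 ± 0.10; 0.34 and not called with spike-in scaling), and XBP1 fell slightly (-0.14 ± 0.05, adjusted p = 0.033), a call lost without any 1 of 5 of the 6 libraries (adjusted p of 0.072 to 0.22). Cytosolic heat shock genes gave no rise and 2 falls of 15 (13.3%, near the 16.5% of all genes), one of them HSPA1A (-0.79 ± 0.11), whose reads cannot be surely told from those of its near-identical copy HSPA1B.

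The methionine cycle was led by 1 gene. MAT2A had 8616, 8652, and 9040 normalized counts at 0 h, 7304, 6895, and 6769 at 0.5 h, 17420, 19380, and 18190 at 2 h, and 33860, 35290, and 34370 at 12 h. It was slightly below Met+ medium at 0.5 h (-0.32, adjusted p = 7.9e-07), rose 2.62-fold over the step (1.39 ± 0.05, adjusted p = 1.2e-23), and went on rising. SRM, spermidine synthase, rose slightly (0.35 ± 0.05; 0.15 and not called with spike-in scaling), and 6 of 19 members rose and 1 fell (31.6% and 5.26%, against 16.3% and 16.5%). Their median was 0.05, and spike-in scaling gave 1 rise, 1 fall, and a median of -0.16. Of 12 amino acid transporters 5 rose (41.7% against 16.3%) and 1 fell, with 1 rise and 1 fall under spike-in scaling. Among those that rose were SLC7A5 from 29420, 26840, and 32040 to 49080, 47350, and 44730 (0.68 ± 0.07) and SLC7A1 (0.48 ± 0.04), which carry large neutral and cationic amino acids. SLC38A2, a carrier of small neutral amino acids including Met, fell from 13640, 12850, and 12470 to 9262, 11120, and 10680 (-0.33 ± 0.07), with 7700, 7392, and 7307 at 0 h. The transporter median was 0.10, and -0.10 with spike-in scaling, under which SLC7A1 was not called (0.28).

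Many of the largest rises were returns from a low level at 0.5 h. PHLDB2, a protein of the cell cortex, had 4372, 4520, and 3912 normalized counts at 0 h, 451, 468, and 314 at 0.5 h, and 5717, 6029, and 6404 at 2 h. The highest 0.5 h library was 8.35 times below the lowest at 0 h and 12.2 times below the lowest at 2 h (-3.33 to 0.5 h, 3.83 ± 0.09 over the step, adjusted p = 1.1e-19), and at 2 h the level was above 0 h (0.50). KRT75, a keratin, went from 1925, 2005, and 1870 to 285, 276, and 240 and then 3414, 3684, and 3334 (3.68 ± 0.09, adjusted p = 5.6e-24). CRISPLD2, a secreted protein, went from 1860, 2064, and 1723 to 346, 361, and 387 and 2957, 3132, and 3057 (3.08 ± 0.08). ANKRD33B (-3.14, then 3.06 ± 0.16) and the vitamin D hydroxylase CYP24A1 (-3.26, then 2.92 ± 0.31) came back to 0 h levels, with -0.08 and -0.33 against 0 h (neither called).

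PKP1, KRT6A, PLAT, and OASL had dipped by 0.5 h too (-1.36, -1.85, -1.97, and -2.11, all called). At 2 h they were above 0 h (3.09, 1.88, 1.13, and 0.89), as were KRT75 (0.84) and CRISPLD2 (0.69). PKP1, plakophilin 1 of the desmosome, had 43.1, 33.5, and 39.4 at 0 h, 14.9, 12.3, and 19.2 at 0.5 h, 314, 330, and 341 at 2 h, and 395, 429, and 356 at 12 h. Its rise was the largest among the genes named here other than RNAs without a tail (4.45 ± 0.21, adjusted p = 8.6e-21), and the lowest 2 h library was at 16.3 times the highest 0.5 h library. KRT6A, a keratin of activated epithelium with close paralogs that may share its reads, rose from 11.2, 12.3, and 9.62 to 161, 130, and 158 (3.74 ± 0.26) and on to 336, 440, and 365. PLAT, tissue plasminogen activator, rose by 3.10 ± 0.20, and OASL, an interferon-induced gene, by 2.99 ± 0.23, the latter going down to 7.94, 6.47, and 5.07 at 12 h.

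**Figure D3:**
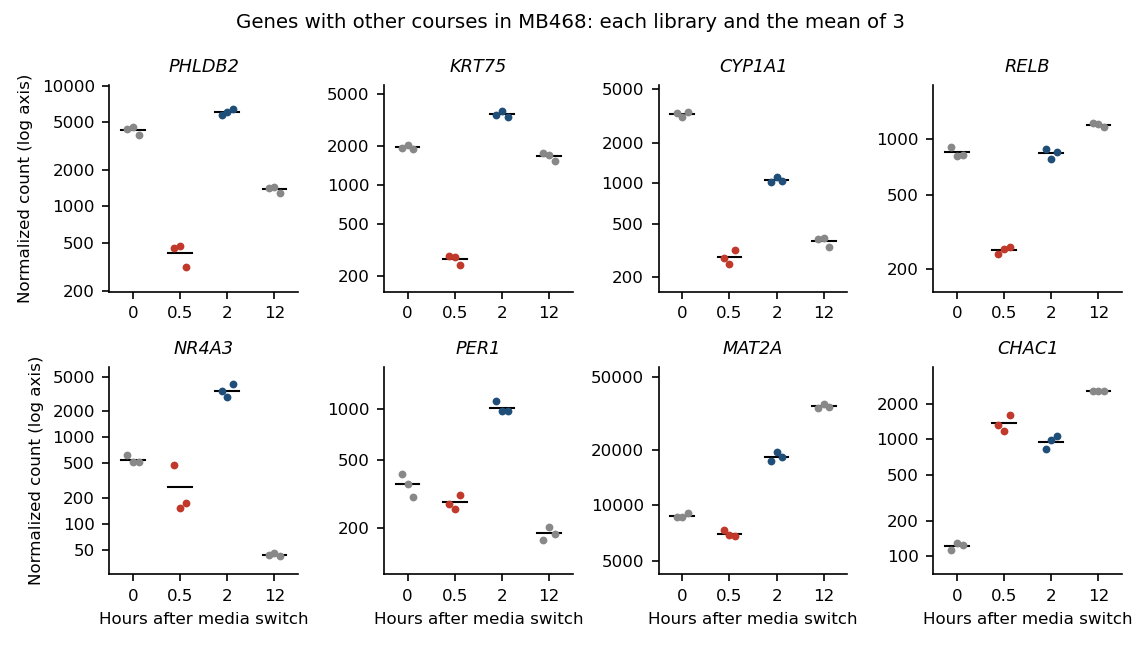
Normalized counts (log axis) of 8 further genes in MB468 at 0, 0.5, 2, and 12 h, with each library as a point and the mean of 3 as a bar; 0.5 h is red and 2 h dark blue. PHLDB2, KRT75, CYP1A1, and RELB dip at 0.5 h, NR4A3 and PER1 peak at 2 h, MAT2A is highest at 12 h, and CHAC1 is lower at 2 h than at 0.5 h in every library and highest at 12 h.

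The same dip marked several lists. Of 10 genes of the aryl hydrocarbon receptor pathway, 7 rose and 1 fell (70% higher, against 16.3% of all genes), with a median of 0.81 after -0.85 from 0 h to 0.5 h. CYP1A1, the receptor's best known target, had 3337, 3121, and 3384 normalized counts at 0 h, 277, 250, and 317 at 0.5 h, and 1023, 1104, and 1038 at 2 h. It rose over the step (1.93 ± 0.09, adjusted p = 6.5e-19) without reaching 0 h levels (-1.64 against 0 h). CYP1B1 went from 12800, 11680, and 12230 to 23950, 26250, and 23840 (1.01 ± 0.04), and TIPARP, a feedback inhibitor of the receptor, from 1164, 1046, and 1072 to 3925, 4148, and 4505 (1.93 ± 0.11, adjusted p = 2.1e-10). NFE2L2, the oxidative stress factor NRF2, rose by 0.60 ± 0.04.

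NF-kB targets took a like course, with 14 of 19 higher and 2 lower (73.7% against 16.3%), and a median of 0.71 beside -0.20 for the first interval. RELB, an NF-kB subunit, had 904, 813, and 816 at 0 h, 242, 257, and 262 at 0.5 h, and 885, 783, and 848 at 2 h, so that it was back at its 0 h level (1.74 ± 0.07 over the step, adjusted p = 3.6e-22; -0.0071 against 0 h). The adhesion receptor ICAM1 (1.25 ± 0.06), NFKB2 (0.71 ± 0.05), and BIRC3 (1.21 ± 0.09) rose also. The 2 that fell, NFKBIZ (-1.09 ± 0.10) and the chemokine CXCL2 (-1.09 ± 0.21), were both up at 0.5 h (0.98 and 2.21).

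YAP and MRTF targets gave 14 higher and 1 lower of 16 (87.5% and 6.25%, against 16.3% and 16.5% of all genes). Their medians were 0.43 for the step and -0.28 for the first interval, and spike-in scaling gave 7 higher and 2 lower. Cytoskeletal genes led them. VCL, vinculin, had 17800, 18580, and 18900 at 0 h, 10320, 10190, and 9928 at 0.5 h, and 16580, 17580, and 16020 at 2 h (0.72 ± 0.04, adjusted p = 5.5e-19). FHL2 (1.16 ± 0.04), TAGLN (1.24 ± 0.06), and TPM1 (0.57 ± 0.04) rose, each to a level that did not pass the test against 0 h (-0.03, 0.04, and 0.01). AJUBA, a LIM protein of cell junctions, went the other way (-0.49 ± 0.07).

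Ribosome biogenesis factors, which process ribosomal RNA in the nucleolus, rose in 22 of 27 cases with none lower. That makes 81.5% higher, against 16.3% of all genes, and none lower, against 16.5%. Their median was 0.32 for the step and -0.33 for the first interval, and 0.03 from 0 h to 2 h. RRP12 went from 1529, 1559, and 1645 to 2683, 2771, and 2547 (0.76 ± 0.05, adjusted p = 7.1e-16), and WDR43 from 3070, 3137, and 2964 to 4677, 4832, and 4611 (0.62 ± 0.04). With spike-in scaling the median was 0.12 and 3 of the 27 were called higher, where 677 of all 14741 genes were.

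Mitotic genes ran opposite to these. Of 18 genes of G2 and mitosis 17 fell and 1 was not called (94.4% lower, against 16.5%), and spike-in scaling left 17 lower. Their medians were -0.39 for the step, 0.41 for the first interval, and 0.07 from 0 h to 2 h. AURKA, Aurora kinase A, had 1531, 1665, and 1536 normalized counts at 0 h, 2357, 2500, and 2395 at 0.5 h, 1363, 1417, and 1401 at 2 h, and 2509, 2560, and 2490 at 12 h (-0.80 ± 0.05 over the step, adjusted p = 2.3e-17). The 2 h libraries were below those of both earlier times. MKI67, the proliferation marker Ki-67, fell from 10310, 10320, and 9990 to 6531, 6711, and 5612 (-0.70 ± 0.05, adjusted p = 2.9e-15), to below its 0 h values of 8318, 8417, and 7849. TOP2A, the topoisomerase that untangles chromosomes, fell too (-0.53 ± 0.04).

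Regulators of G1 gave 6 higher and 3 lower of 13 (46.2% and 23.1%, against 16.3% and 16.5%), with a median of 0.14. With spike-in scaling 1 was higher and 3 lower, and the median was -0.06. CDKN1A, the CDK inhibitor p21, rose from 615, 539, and 689 to 1754, 1784, and 1683 (1.52 ± 0.15, adjusted p = 2.4e-07) and was at 272, 318, and 317 at 12 h. The inhibitors CDKN2C (-0.76 ± 0.09) and CDKN1B (-0.66 ± 0.09) fell, and cyclin D1, CCND1, rose by 0.30 ± 0.05 (0.09 and not called with spike-in scaling). Of 18 genes of Polycomb repressive complex 1, which places ubiquitin on histone H2A, 5 fell (27.8% against 16.5%) and RYBP alone rose (0.20 ± 0.07, adjusted p = 0.018; not called without any 1 of 3 libraries at an adjusted p of 0.053 to 0.11, 2 h replicate 2 among them, and of the other sign with spike-in scaling at -0.0074). CBX2, its chromatin reader, had 2251, 2144, and 2099 at 0 h, 1967, 1937, and 2066 at 0.5 h, 1074, 1065, and 1028 at 2 h, and 4236, 4136, and 4024 at 12 h. It fell over the step (-0.91 ± 0.06, adjusted p = 1.4e-16), and the interval before it gave -0.13 (adjusted p = 0.056). IRF2BP2, a transcriptional repressor, rose in both intervals, from 4743, 4642, and 4727 to 6692, 6692, and 6914 and 9389, 10090, and 10270 (0.55 ± 0.04 over the step).

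Among clock genes and feedback genes of TGF-beta and BMP some changed after 0.5 h that had not passed the test before. PER1, a repressor arm of the circadian clock, had 417, 363, and 302 at 0 h, 277, 256, and 312 at 0.5 h, and 1116, 974, and 977 at 2 h. It rose over the step (1.88 ± 0.17, adjusted p = 9.6e-08) after an interval in which it was not called (-0.39, adjusted p = 0.12), and PER2 did likewise (1.50 ± 0.13). NFIL3, a transcriptional repressor, rose in both intervals (0.92, then 0.75 ± 0.09), BHLHE40 fell from its peak (-0.60 ± 0.06) and CRY2 fell (-0.44 ± 0.08), and the clock list as a whole split into 6 higher and 6 lower of 17 (35.3% each way, against 16.3% and 16.5%). ID3, an inhibitor of differentiation induced by BMPs, went from 1655, 1802, and 1779 and 1503, 1496, and 1425 to 3886, 3672, and 3566 (1.33 ± 0.12, adjusted p = 5.2e-08), while the pseudoreceptor BAMBI fell (-0.42 ± 0.08). Of the 14 genes of that list, 5 rose and 6 fell (35.7% and 42.9%, against 16.3% and 16.5%), and 2 and 6 with spike-in scaling. Of 9 glucose-sensing genes 3 rose and 1 fell (33.3% and 11.1%, against 16.3% and 16.5%), or 2 and 1 with spike-in scaling, which took their median from 0.05 to -0.16.

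Lists of lipid metabolism had medians near 0 between 0.5 h and 2 h. Of 24 sterol synthesis genes 6 rose and 3 fell (25% and 12.5%, against 16.3% and 16.5%), with a median of 0.02, and spike-in scaling gave 1 rise, 2 falls, and a median of -0.18. HMGCS1, an early enzyme of sterol synthesis, rose by 0.29 ± 0.04 (0.09 and not called with spike-in scaling), and SQLE, squalene epoxidase, fell (-0.19 ± 0.04). Of 21 fatty acid synthesis genes 1 rose and 6 fell (4.76% and 28.6%), the latter with SCD, from 46120, 46000, and 47470 to 40080, 40420, and 38060 (-0.24 ± 0.04, adjusted p = 7.2e-06), and ELOVL6 (-0.25 ± 0.04). FASN, fatty acid synthase, was at 48770, 46520, and 53750 and 50270, 48130, and 43160, and was not called (-0.07 ± 0.06, adjusted p = 0.43). Of 21 beta-oxidation genes 4 fell, 19% against the 16.5% of all genes, and none rose. Without 2 h replicate 2 the falls numbered 4 for fatty acid synthesis and 2 for beta-oxidation. The medians of these 3 lists from 2 h to 12 h were -1.69, -0.73, and -0.52, beside 0.02, -0.09, and -0.02 for the step.

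**Figure D4:**
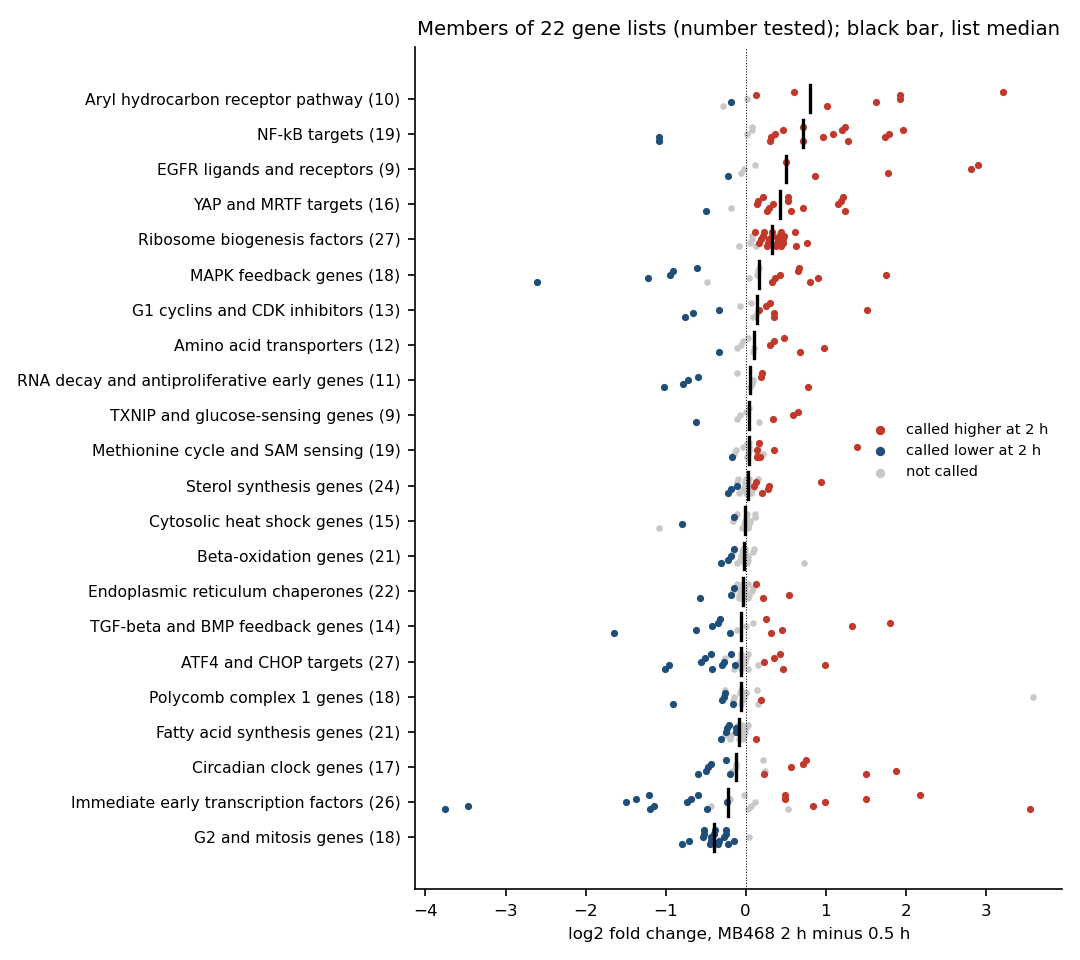
Log2 fold change from 0.5 h to 2 h in MB468 for the tested members of 22 gene lists, 1 point a gene, ordered by the list median (black bar). Red points were called higher and dark blue points lower at an adjusted p under 0.05; aryl hydrocarbon receptor and NF-kB genes lie mostly to the right, and the 17 called mitotic genes lie to the left.

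The same step in R8 cells called 5207 genes (35.3%), and the 2 lines share no library. In the same direction in both lines were 3097 genes, 64.2% of those called in MB468 and 59.5% of those called in R8, and 110 were called in opposite directions. Across all 14741 genes the log2 fold changes of the lines gave a Pearson r of 0.57, a value over genes that are not independent. The test of the difference in step, R8 minus MB468, called 1211 genes (8.22%), 520 with the larger value in R8 and 691 with the smaller. With spike-in scaling 261 were called, 158 and 103, the median gene of the difference being then at 0.12 in place of 0.0032.

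Many early genes, though not all, went down further in R8 over the same 1.5 h. EGR1, which fell by 1.21 on the log2 scale in MB468, fell by 4.85 in R8, a difference of -3.63 ± 0.14 (adjusted p = 2.5e-12). In R8 it went from 17630, 19100, and 20080 normalized counts at 0.5 h to 607, 707, and 644 at 2 h, all of them below the lowest R8 library at 0.5 h and below every MB468 library at 2 h. FOS (-2.04 ± 0.13), DUSP1 (-2.08 ± 0.09), HES1 (-1.76 ± 0.15), JUNB (-1.55 ± 0.09), ZFP36 (-1.68 ± 0.09), and EGR2 (-1.08 ± 0.20) differed in the same direction, and so did the ATF4 targets DDIT4 (-2.06 ± 0.09), CHAC1 (-1.01 ± 0.12), and SESN2 (-0.89 ± 0.11). Of the 26 immediate early factors 15 were called for the difference, with a median difference of -0.78 beside 0.0032 for all genes, where 8.22% were called. Of the 27 ATF4 and CHOP targets 11 were called, with a median difference of only -0.05, and VLDLR differed the other way (0.30 ± 0.10). No difference was called for BCL6 (-0.22 ± 0.11, adjusted p = 0.24), JUN (-0.22 ± 0.13, adjusted p = 0.37), GATA2 (0.02 ± 0.27, adjusted p = 0.98), and DUSP2 (-0.50 ± 0.23, adjusted p = 0.19). The mitotic list gave 1 of 18 and the beta-oxidation list 0 of 21.

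The differences with the smallest p-values were in genes that rose or were not called in MB468 and fell in R8. NUAK2, a kinase related to AMPK, rose from 256, 283, and 227 to 705, 816, and 782 in MB468 (1.57 ± 0.09) and fell in R8 (-0.78), a difference of -2.35 ± 0.12 (adjusted p = 2.2e-18). NFKBIA, the inhibitor of NF-kB (0.31 ± 0.05 in MB468, -1.27 in R8), TGIF1, a corepressor of SMADs (0.46 ± 0.04 and -1.11), and KLF10 (-0.03 ± 0.05 and -1.80) completed the 4 in that direction. HBEGF (0.87 ± 0.08 and -0.95) and PPP1R15A (0.43 ± 0.05 and -0.92) also rose in MB468 and fell in R8. For TIPARP the step gave 1.93 ± 0.11 in MB468 and 0.15 in R8, a difference of -1.78 ± 0.16 (adjusted p = 4.7e-07). In the other direction stood FOXC1, a forkhead factor of basal-like breast cells (-0.34 ± 0.07 in MB468, 1.16 in R8), the stress-responsive gene NDRG1 (0.21 ± 0.05 and 1.36), KLHL25, an adaptor of cullin ubiquitin ligases (-0.62 ± 0.10 and 0.78), and the retinol dehydrogenase RDH10 (0.03 ± 0.07 and 1.27). With spike-in scaling the rises of NFKBIA (0.10), TGIF1 (0.26), and NDRG1 (0.01) in MB468 were not called, and the uncalled value of RDH10 turned to -0.17. For MAT2A the lines differed by 0.01 ± 0.07 (adjusted p = 0.95), with a 95% interval from -0.12 to 0.14 on the log2 scale.

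**Figure D5:**
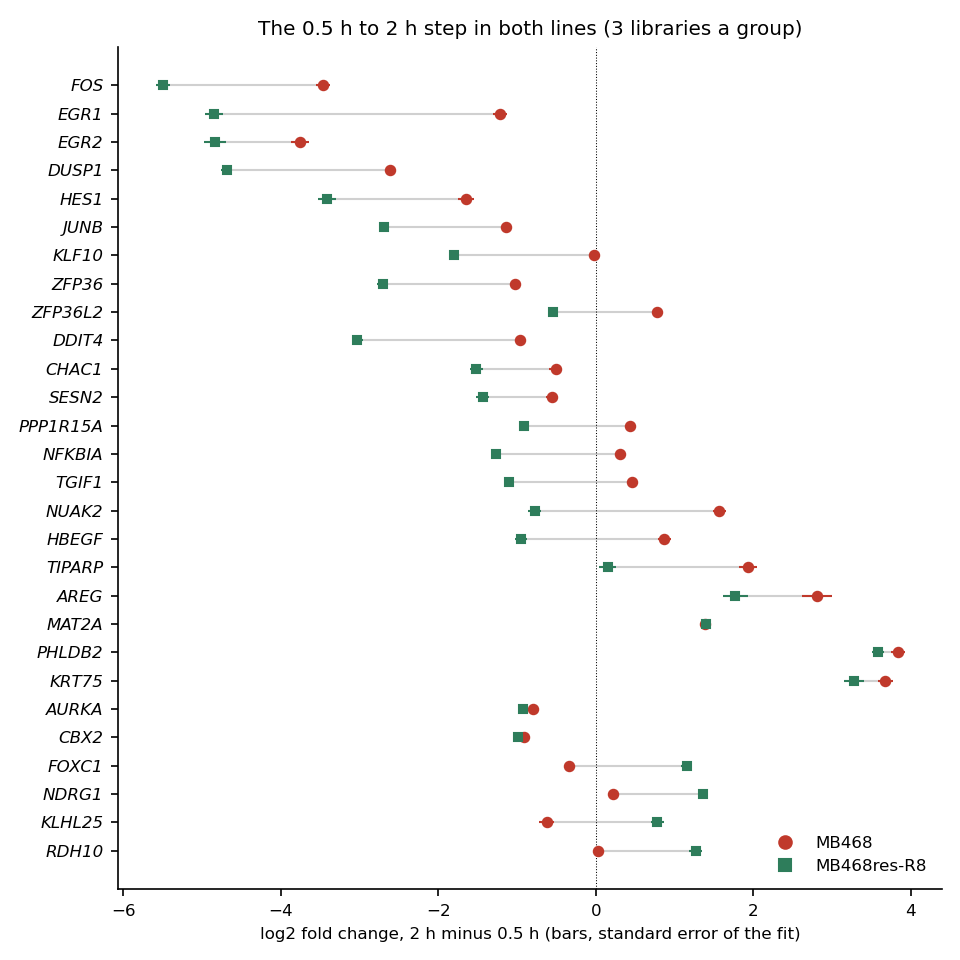
Log2 fold change from 0.5 h to 2 h of 28 genes in MB468 (red circles) and MB468res-R8 (green squares), with the standard error of the fit as a bar and 3 libraries in each group. FOS, EGR1, EGR2, DUSP1, and DDIT4 lie further left in R8, FOXC1, NDRG1, KLHL25, and RDH10 further right, and MAT2A, AURKA, and CBX2 nearly coincide.

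The genes that fell past 2-fold had short spans. RefSeq gene spans (GRCh38.p14) were found for 155 of the 157 genes at least 2-fold lower at 2 h, 413 of the 419 at least 2-fold higher, and 14607 of all 14741. The median span was 13.6 kb for the lower genes, 23.6 kb for the higher genes, and 29 kb for all. Spans over 100 kb made up 6.45%, 18.2%, and 18% of these sets. DUSP1, at 3.1 kb, and EGR1, at 3.83 kb, are cases among the falls, and PHLDB2, at 244 kb, is one among the rises. Canonical transcripts of the sets (GENCODE 44) differed less, with medians of 3.1, 3.07, and 3.19 kb, and their GC content was 51.5%, 53.4%, and 48.5%. The heptamer TATTTAT, the core of many AU-rich elements, was present in the 3′ UTR of 45.4% of lower, 41.8% of higher, and 35.9% of all genes with one. These are descriptions of the sets, without a test.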

How the data were processed

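RNA of 24 libraries (8 groups of 3) was poly(A)-selected, given ERCC spike-ins, made into unstranded TruSeq v2 libraries, and read as single 100 bp ends. Per the labels and methods, the authors aligned reads to GRCh38 with the ERCC sequences by HISAT2 2.1.0 and counted them per gene by featureCounts (Subread 1.5.3); the deposited values are these raw counts, for 26645 entries and 92 spike-ins. Without strand, reads of a gene and its antisense neighbor cannot be told apart.

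Genes passing edgeR's filterByExpr (minimum count 10, 14741 genes) were tested here with edgeR 4.0.16 (R 4.3.3): TMM factors, 1 mean per group over all 24 libraries, the robust quasi-likelihood fit, and Benjamini-Hochberg adjustment, called at an adjusted p under 0.05. Totals of 11745553 to 36496655 counts set the precision. Replicates differed by more than sampling noise. Alternatives were DESeq2 1.42.0, its size factors, spike-in totals, other filters, fewer libraries, a replicate block, thinning, and leaving out each library. The fit was tested on simulated data.

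Members, gene lists, and rules were chosen with earlier results of these data known. Genes named were the 12 largest changes in each direction (mean of at least 100 normalized counts at one of the times, no overlap of libraries), up to 4 called genes of each list in each direction by p, a fixed set of early, ATF4, and metabolic genes whether called or not, 4 in each direction for the lines, and RNAs without a poly(A) tail; some that the rule names are not reported here. The heptamer TATTTAT was searched after values were seen. Promoters came from RefSeq (GRCh38.p14). They were found for 74.2% of the genes at least 2-fold higher at 2 h, 72% of those lower, and 78.2% of all tested. This was held to be too few to compare motif shares between rising and falling genes, and no such comparison is given.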

Additional observations from a re-analysis of the deposited data

Results flagged for a closer look

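The step from 0.5 h to 2 h differed between MB468 and R8 by edgeR's test of the difference (Benjamini-Hochberg adjusted p under 0.05 over 14741 genes) for 55 of the genes named above. Each value below is the log2 fold change of R8 minus that of MB468, with 3 libraries in each of the 4 groups. A negative value means that the RNA fell more, or rose less, in R8. Among immediate early transcription factors, the difference was -3.63 for EGR1, -2.04 for FOS, -1.77 for KLF10, -1.55 for JUNB, -1.08 for EGR2, -0.75 for KLF6, and -0.30 for SRF. For RNA decay and antiproliferative genes, it came to -1.68 for ZFP36, -1.31 for ZFP36L2, -1.005 for ZFP36L1, -0.66 for BTG2, and -0.58 for TOB1. In feedback genes of MAPK signaling and EGFR ligands, the values were -2.08 for DUSP1, -1.82 for HBEGF, -1.13 for DUSP5, -1.04 for AREG, -0.88 for ERRFI1, -0.70 for DUSP4, and -0.34 for DUSP16. ATF4 and CHOP targets gave -2.06 for DDIT4, -1.35 for PPP1R15A, -1.23 for DDIT3, -1.01 for CHAC1, -0.89 for SESN2, -0.40 for CEBPG, -0.28 for ATF4, and 0.30 for VLDLR. Among NF-kB, YAP, and MRTF targets, the difference was -1.58 for NFKBIA, -0.93 for ICAM1, -0.79 for NFKBIZ, and -0.47 for TAGLN. For the list of TGF-beta and BMP feedback genes, in which the Notch repressor HES1 was also placed, it came to -1.76 for HES1, -1.57 for TGIF1, and -0.91 for ID3. In aryl hydrocarbon receptor genes, the values were -1.78 for TIPARP, -0.55 for CYP1A1, -0.30 for CYP1B1, and -0.21 for NFE2L2. Clock genes gave -1.09 for BHLHE40 and -0.87 for NFIL3. Among carriers, lipid, and endoplasmic reticulum genes, the difference was -0.67 for SLC38A2, -0.72 for ERN1, 0.50 for SLC7A5, and 0.18 for ELOVL6. For cell cycle and chromatin genes, it came to -0.32 for TOP2A, -0.49 for IRF2BP2, -0.47 for RYBP, 0.41 for CDKN2C, and 0.41 for CCND1. In the remaining genes named for their size or for the lines, the values were -2.35 for NUAK2, -1.42 for PKP1, 1.40 for KLHL25, 1.50 for FOXC1, 1.24 for RDH10, and 1.14 for NDRG1. ELOVL6 (adjusted p = 0.0497), BTG2 (0.0494), VLDLR (0.0493), and TAGLN (0.0475) were the closest to the threshold. With spike-in scaling 261 genes were called for the difference in place of 1211, and its median gene lay at 0.12. Values near 0 thus depend on the scaling, and which of the 55 stayed called is not reported here. Single outlying libraries were not tested for within groups of 3, and every column of the count table was used.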

How the results depend on the processing

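The count of 4822 genes called between 0.5 h and 2 h in MB468 stayed between 3556 and 4804 under all the other settings tried, and between 4122 and 4497 without 1 of the 6 libraries. The 576 genes past 2-fold became 300 when at least 10 counts were asked of every library, a filter that leaves out genes near 0 in 1 group, and ran from 517 to 594 without 1 library. The 1211 genes with a difference between the lines became 261 with spike-in scaling and 694 at an adjusted p under 0.01, and ran from 937 to 1226 without 1 library. Thinning every library to 11713037 counts, an alternative chosen after seeing the data, gave 4280, 525, and 997 genes, so that depth set part of each count. Without MB468 2 h replicate 2, 9 of the 576 genes past 2-fold took the opposite sign. Across the other settings sign changes were followed for 113 genes only. Of the called genes among them, RYBP (-0.0074) changed sign with spike-in totals as library sizes, and the cause was not tested. Over all genes that scaling took the number called higher from 2396 to 677.

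A fit with a replicate block called 4723 genes, 564 past 2-fold, and 1159 for the lines. Libraries of the same number did not deviate together in MB468 (correlations of -0.29, -0.03, and -0.37 over 6391 genes, against a mean of 0.12 for different numbers), so the numbers name libraries and do not pair them. The block moved no call among the 113 genes whose alternatives were followed. Of the 1688 values of these genes, 1649 stayed on their side of the threshold in the same direction, 30 lost and 2 gained a call, and 1 of a called gene changed sign. A further 6, of the uncalled NR4A1, KLF10, ASNS, and RDH10, changed sign without a call, among them NR4A1 (-0.14) and RDH10 (-0.17) with spike-in scaling. XBP1 lost its call under 8 alternatives, 5 of them leaving out 1 library.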
